A study of Mus musculus with 31 samples.

Results

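Oocytes from antral follicles at the stage titled Type6 (3 libraries) were compared with oocytes from secondary follicles at the stage titled Type5b (3 libraries). These 6 libraries were chosen by their titles from the 31 of the series, which cover 9 stages of follicle growth from Type1 to Type7. All oocytes came from B6D2F1 mice, the cross of C57BL/6 and DBA/2, and no treatment or mutation is given for either stage. Another label attaches embryo stages to these libraries (trophectoderm and zygote in Type5b, zygote and 2-cell in Type6); it contradicts the titles and the tissue label and was not used for grouping. Nothing in the labels gives the age of the animals, the number of oocytes in a library, or whether libraries came from separate animals. Differences among libraries may thus be technical, and no p-value here can be read as a measure of spread among animals. For single tiles and promoter windows, given below, the quasi-binomial p-value also depends on the number of reads.

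A mouse oocyte enters growth with little DNA methylation and gains most of it during growth, in the follicle. The de novo enzyme DNMT3A and its partner DNMT3L place the marks, mainly in transcribed regions, while most CpG-island promoters stay unmethylated; the islands that do become methylated include the control regions of maternally imprinted genes. A secondary follicle has several layers of granulosa cells around the oocyte, and an antral follicle has in addition a fluid-filled cavity and an oocyte close to its final size. The comparison thus asks how much of the oocyte pattern was still missing at Type5b and where it had arrived at Type6. The assay was reduced representation bisulfite sequencing: MspI cuts at CCGG, and the resulting short fragments come mainly from CpG-rich sequence. A level is the percentage of reads that were methylated. It was computed in fixed 100-bp tiles that held at least 3 CpG sites with at least 5 reads each.

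The sequences below are the 250 bases before the annotated start of 5 genes whose promoter windows were called different between the stages. They are examples, picked after their values were seen: a window at each of several levels reached in Type6, and 1 window that fell. Their spacing of CpG shows which bases the values come from. They are RefSeq sequence of build GRCm38.p6, written 5′ to 3′ on the gene's strand. Capitals mark the CpG sites with at least 5 reads in at least 1 library of each stage.
Tmem91 (a transmembrane protein): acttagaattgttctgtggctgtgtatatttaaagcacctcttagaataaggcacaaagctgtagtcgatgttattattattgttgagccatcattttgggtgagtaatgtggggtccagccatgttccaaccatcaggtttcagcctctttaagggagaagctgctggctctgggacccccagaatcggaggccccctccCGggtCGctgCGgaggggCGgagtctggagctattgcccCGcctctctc
Rasl2-9 (a Ras-like small GTPase of the Ran type): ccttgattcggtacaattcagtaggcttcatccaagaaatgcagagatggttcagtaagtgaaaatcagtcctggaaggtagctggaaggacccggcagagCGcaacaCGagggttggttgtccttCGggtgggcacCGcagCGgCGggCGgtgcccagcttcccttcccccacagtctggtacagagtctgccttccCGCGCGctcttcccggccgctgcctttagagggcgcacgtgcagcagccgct
Pacsin3 (an adaptor between membrane and cytoskeleton): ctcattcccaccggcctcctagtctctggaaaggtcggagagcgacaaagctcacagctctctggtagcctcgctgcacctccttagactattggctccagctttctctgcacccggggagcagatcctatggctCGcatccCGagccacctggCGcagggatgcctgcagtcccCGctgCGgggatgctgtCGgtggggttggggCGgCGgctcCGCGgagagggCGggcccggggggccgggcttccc
Tha1 (threonine aldolase): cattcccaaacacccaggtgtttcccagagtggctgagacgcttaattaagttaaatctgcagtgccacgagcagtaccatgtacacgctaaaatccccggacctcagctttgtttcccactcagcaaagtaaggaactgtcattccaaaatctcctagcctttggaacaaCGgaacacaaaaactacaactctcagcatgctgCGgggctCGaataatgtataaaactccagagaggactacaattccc
Gm34655 (a predicted gene): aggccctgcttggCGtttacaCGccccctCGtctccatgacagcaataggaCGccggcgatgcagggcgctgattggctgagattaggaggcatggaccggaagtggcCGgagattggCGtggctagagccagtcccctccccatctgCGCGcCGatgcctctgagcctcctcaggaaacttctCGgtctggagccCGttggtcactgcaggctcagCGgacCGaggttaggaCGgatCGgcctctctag
Read in the files, these windows lie in mm9 at chr7:26460136-26460435 (Tmem91, minus strand), chr7:5077503-5077802 (Rasl2-9, minus strand), chr2:91096720-91097019 (Pacsin3, plus strand), chr11:117734791-117735090 (Tha1, minus strand) and chr9:121186746-121187045 (Gm34655, plus strand). Each window runs from 250 bases before to 50 bases after the start. The first 4 rose in Type6, and the Gm34655 window fell.

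Depth differed between libraries. Reads summed over sites were 38713327, 21578478 and 23998640 in Type5b replicates 1, 2 and 3, and 60361665, 32988614 and 52177274 in Type6. The median site had 16 to 21 reads in Type5b and 19 to 26 in Type6. A measure of CpG-dense tiles (at least 60 listed CpG sites per kb) on the X chromosome set the libraries apart. The level of 63 such X tiles minus that of 2902 such autosomal tiles was -6.67, -3.31 and -2.54 points in Type5b and 1.04, 1.31 and -4.02 points in Type6. Reads on mitochondrial sites came to 38.2, 53.1 and 42.3 RPM of all reads over sites in Type5b and 129.8, 101.6 and 49.1 RPM in Type6. Type6 replicates 1 and 2 thus stood above the other 4 libraries on both measures, and Type6 replicate 3 did not. The part of these 2 measures in the results was not tested. Values for Type6 replicate 3 alone are given beside the main differences and where a call is lost without the other 2 libraries. With 1 Type6 library the spread within Type6 cannot be estimated. A call made that way takes its spread from the other stages and does not show that a difference is replicated. Of the genes listed as granulosa and theca cell markers, 1 of 10 had a placed promoter window and none was tested, so the cell type could not be checked through them.

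Type6 oocytes carried more methylation than Type5b oocytes in every library. Over 33134 tiles measured in all 6 libraries, the mean tile level was 31.4, 29.0 and 29.9% in Type5b and 38.0, 41.0 and 37.4% in Type6. The libraries did not overlap, and the means were 30.1% ± 1.22 (SD, n = 3) and 38.8% ± 1.94 (SD, n = 3), a difference of 8.66 points (SE 1.33; two-sided exact permutation p = 0.1). This p is the smallest that 3 libraries against 3 can give, and all 11 library-level comparisons here had it, with a Benjamini-Hochberg adjusted value of 0.1, so none can pass a threshold of 0.05. With Type6 replicate 3 as the single antral library the difference was 7.09 points.

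The higher mean went with more tiles at 80% or more and with slightly fewer between 20 and 80%. Tiles at 80% or more made up 12.6, 9.87 and 10.5% of the tiles in Type5b and 19.8, 24.4 and 20.4% in Type6. Their mean share was 11.01% ± 1.45 (SD, n = 3) against 21.5% ± 2.51 (SD, n = 3; exact permutation p = 0.1). Tiles between 20 and 80% took 36.3% ± 0.687 in Type5b and 33.1% ± 1.14 in Type6 (SD, n = 3 each), a difference of -3.22 points that was -5.78 with at least 5 sites per tile and -2.04 in 300-bp tiles. By stage means, 3812 tiles, 28.3% of those between 20 and 80% in Type5b, were at 80% or more in Type6, and 330 (2.45%) were below 20%. Of the tiles below 20% in Type5b, 83.5% were still below 20% in Type6, 16.1% lay between 20 and 80%, and 63 tiles (0.372%) were at 80% or more. Of the tiles at 80% or more in Type5b, 90.9% were so in Type6, and none was below 20%.

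Sorting tiles by 2 stages outside the comparison, Type2 (primordial follicles, 3 libraries) and Type7 (antral follicles, 3 libraries), separated several kinds of tile. The first kind was below 10% in Type2 and at 80% or more in Type7, and so holds sequence that gains methylation during growth. In these 2389 tiles the level was 74.3, 62.4 and 65.2% in Type5b and 85.0, 84.6 and 87.4% in Type6. The libraries did not overlap; the means were 67.3% ± 6.24 and 85.7% ± 1.55 (SD, n = 3 each), a difference of 18.3 points (SE 3.71; exact permutation p = 0.1). Tiles of this kind at 80% or more were 48.0% ± 8.70 of the kind in Type5b and 76.8% ± 2.09 in Type6 (SD, n = 3 each). Those still below 20% were 13.97% ± 4.42 in Type5b and 3.21% ± 1.33 in Type6. Type6 replicate 3, which had the lowest X measure of its stage, had the highest level here, and alone it lay 19.5 points above Type5b. Type5b replicate 1 had the highest level of its stage here, and without it the difference was 21.7 points.

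**Figure D1:**
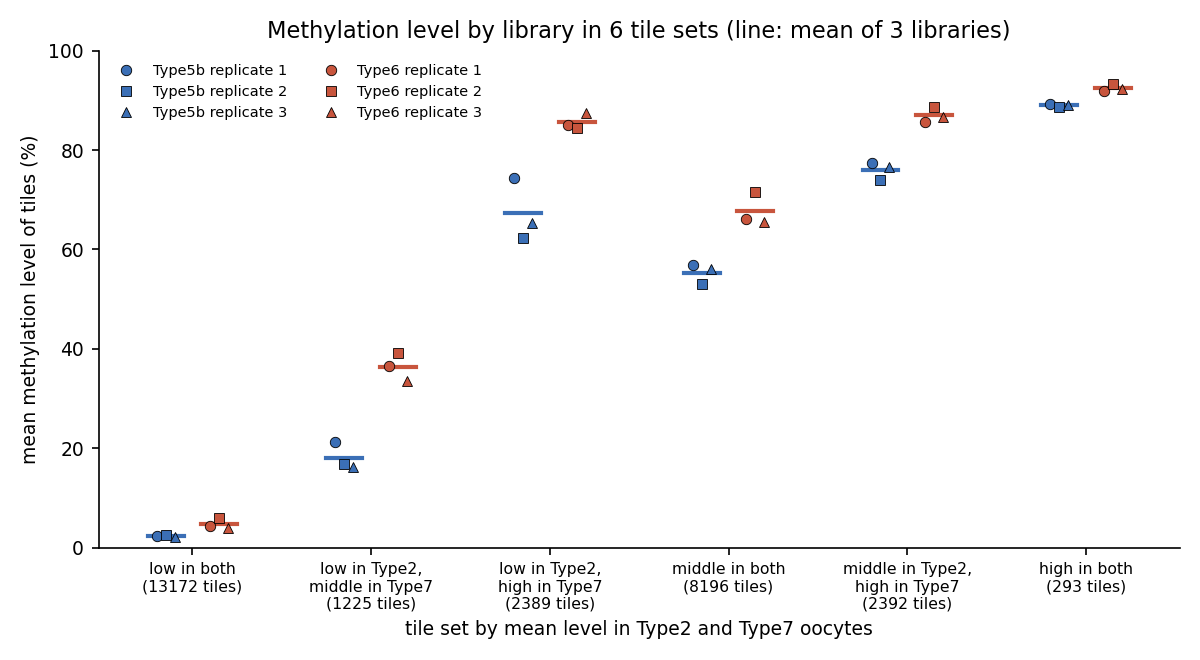
Mean methylation level (%) of tiles in 6 sets, chosen by their mean level in Type2 and Type7 (low, below 10%; middle, 20 to 80%; high, 80% or more), with 1 point per library (Type5b blue, Type6 red) and a line at the mean of 3 libraries. The 3 Type6 libraries lie above the 3 Type5b libraries in each set; the sets low in Type2 and middle or high in Type7 differ by 18.3 points, and the set low in both by 2.43 points.

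Tiles that were below 10% in Type2 and between 20 and 80% in Type7 differed by as many points from a lower base. In 1225 such tiles the level was 21.3, 16.8 and 16.3% in Type5b and 36.5, 39.2 and 33.6% in Type6 (18.1% ± 2.76 and 36.4% ± 2.83, SD, n = 3 each). Tiles between 20 and 80% in both Type2 and Type7 were 12.4 points higher in Type6 (55.3% ± 2.02 and 67.7% ± 3.30, SD, n = 3 each, over 8196 tiles), and 10.1 points higher with Type6 replicate 3 alone. In the 2392 tiles between 20 and 80% in Type2 and at 80% or more in Type7, the level was 76.0% ± 1.74 in Type5b and 87.0% ± 1.54 in Type6 (SD, n = 3 each). The 13172 tiles below 10% in both outer stages had 2.22, 2.52 and 2.14% in Type5b and 4.26, 6.00 and 3.93% in Type6. In these low tiles too the libraries did not overlap, with a difference of 2.43 points (SE 0.652; exact permutation p = 0.1). It was 1.58 points with Type6 replicate 3 alone and 1.48 points with at least 5 sites per tile. In the 293 tiles at 80% or more in both, the level was 89.1% ± 0.277 and 92.5% ± 0.739 (SD, n = 3 each).

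In part of the tiles sorted by their Type7 level, Type6 lay above Type7 itself. Among tiles with 40 to 50% in Type7 (1204 tiles, Type7 mean 45.0%), Type5b libraries had 39.3 to 40.6% and Type6 libraries 53.6, 59.9 and 52.2%. Among tiles at 90% or more in Type7 (3255 tiles, Type7 mean 97.2%), Type6 had 88.8, 89.0 and 90.5%, below Type7, and Type5b had 70.9 to 79.5%. The bins were chosen by Type7's own values, so its mean in every bin is set by that choice, and no test against Type7 was made. In tiles sorted by listed CpG sites per kb, not all measured in Type7, the gap was smaller. Type6 and Type7 had 51.1 and 48.3% at 0 to 9 sites, and Type6 was also the higher up to 39. From 40 sites it was the lower, with 18.64 and 19.15% at 40 to 59. Type6 replicate 2 was the highest library in every bin below 90%, and the SD of the Type6 libraries reached 5.60 points in the bin from 20 to 30%, against 1.29 in Type5b. When tiles were sorted by Type5a, the secondary stage before Type5b (5 libraries), the difference between Type6 and Type5b was 3.60 points in tiles below 10%, 14.8 points in tiles from 10 to 20% and 2.58 points in tiles from 90 to 100%.

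**Figure D2:**
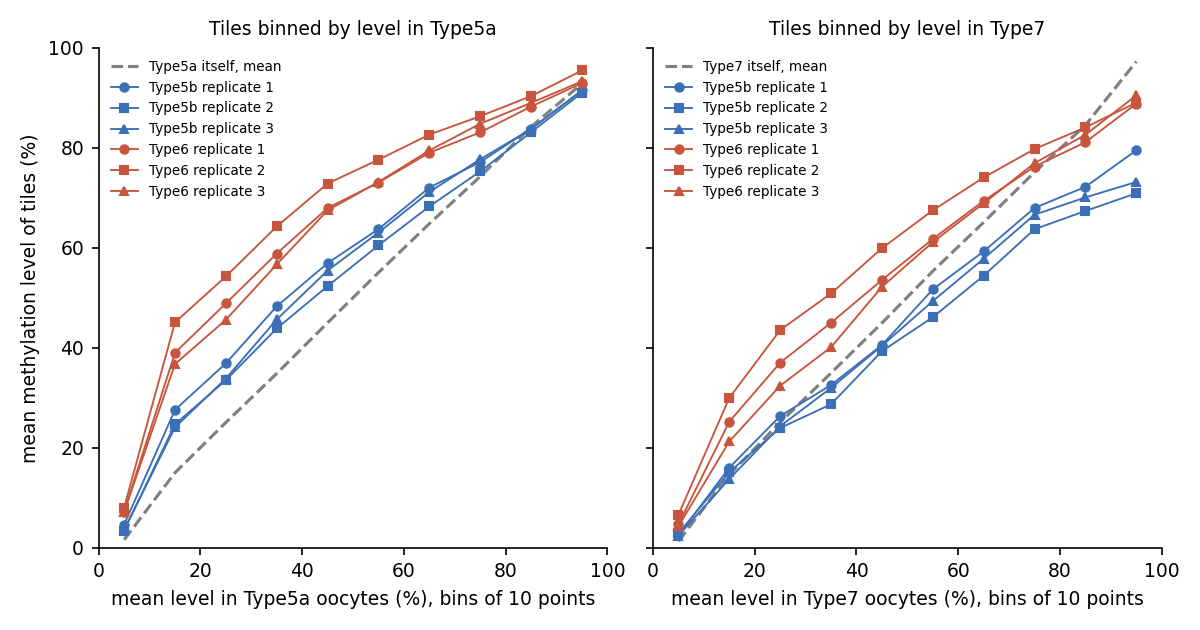
Mean methylation level (%) in each Type5b library (blue) and Type6 library (red) for tiles in bins of 10 points by their mean level in Type5a (left) or Type7 (right); the dashed line is the mean of the stage that made the bins. The red lines lie above the blue ones in every bin of both panels, and below 80% in Type7 they also lie above the dashed line.

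CpG density separated the tiles further. Density is the number of CpG sites that at least 1 library listed in the 1 kb centred on a tile. It counts sites covered by the assay and can fall short of the CpG in the sequence. The tile at chr7:5077601-5077700 had a density of 12, while the 300-bp Rasl2-9 promoter window around it holds 23 CpG. Densest and poorest below refer to this count. The level of the CpG-densest tiles (the upper of 3 equal parts) minus that of the CpG-poorest (the lower) was -17.6 points ± 0.457 in Type5b and -24.4 ± 1.69 in Type6 (SD, n = 3 each), a change of -6.78 points (SE 1.01; exact permutation p = 0.1), so the gap was wider in Type6; with Type6 replicate 3 alone the change was -6.11 points. By stage means over the 61151 tiles tested, the difference fell from 13.1 points at 0 to 9 sites per kb to 2.03 points at 60 or more. Within the tiles that were low in Type2 and high in Type7 no such decline was seen. There the difference was 18.1 points at 0 to 9 sites per kb (71.0 to 89.1%), 18.8 points at 10 to 19 sites, 17.97 points at 20 to 39 and 18.5 points at 40 or more (48.4 to 67.0%, 135 tiles). The last difference had an SE of 7.23, with an SD of 11.4 in Type5b (n = 3). It is too imprecise to tell a flat course from a decline. The densest of these tiles were the least methylated in both stages: at 40 or more sites per kb Type6 reached 67.0% ± 5.24 (SD, n = 3), about the level that the set as a whole had in Type5b.

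The difference varied with the bases around a CpG by a few points, both over all sites and over single sites that gain methylation. Over 226429 sites read in all 6 libraries the difference ran from 6.64 points at CCGC (27.0 to 33.6%) to 12.5 points at ACGG (33.6 to 46.2%). The letters give the base before and after the CpG on either strand, so ACGG also holds CCGT sites and CCGC also holds GCGG sites. In the 17287 single sites that were themselves low in Type2 and high in Type7, the difference ran from 16.8 points at ACGC to 21.8 points at TCGA. Neither range was tested, and sites of 1 fragment share their reads.

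All 20 chromosomes were higher in Type6, with no overlap of libraries on any. The difference was 6.71 points on chromosome 9, 10.1 on chromosome 16 and 11.4 on X (43.5% ± 1.17 to 54.9% ± 2.70, SD, n = 3 each, 1795 tiles). X tiles exceeded autosomal ones by 14.2 points ± 0.171 in Type5b and 17.1 ± 0.803 in Type6 (SD, n = 3 each; difference 2.91, SE 0.474, exact permutation p = 0.1). With Type6 replicate 3 alone, which did not have the raised CpG-dense X measure, this difference was 2.73 points.

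Of 61151 tiles tested, 1403 rose in Type6 and 79 fell, at an adjusted p under 0.05 (quasi-binomial F test over all libraries, Benjamini-Hochberg) and a difference of at least 20 points. That is 2.29% of the tiles for rises and 0.129% for falls; the median tile was 3.03 points higher in Type6 and 68.8% of tiles were higher. The fit weighs a library by its reads, and on simulated data it called more unchanged tiles than the 2 alternatives that follow, so its counts and adjusted p-values, for tiles and for promoter windows, lean towards too many calls. limma on arcsine square-root levels, which does not, called 683 risen (1.12%) and 24 fallen (0.0392%), of which 552 and 17 were among the calls above. With at most 40 reads per tile and library, an alternative chosen after seeing the data, 372 rose (0.608%) and 16 fell (0.0262%). All 3 ways shared 344 risen and 13 fallen tiles. Methods that estimate the spread from the 6 compared libraries alone called almost no tile. A fit on the 2 stages called 1 risen and 0 fallen, and edgeR called 0 and 0. With Type6 replicate 3 as the only antral library fewer tiles were called. Most of the risen tiles that could be tested there, and most of the fallen ones, were not called again. Leaving out single libraries gave 880 rises without Type5b replicate 1, 758 without replicate 2 and 821 without replicate 3, and 864 without Type6 replicate 1. Among the 33136 tiles tested and measured in all 6 libraries, every Type6 library was above every Type5b library in 7777 (23.5%) and below in 186 (0.561%).

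Risen tiles went from a median of 24.7% in Type5b to 80.7% in Type6, levels that the call itself selects. By class, 567 of them (40.4%) went from the middle range to 80% or more, 486 (34.6%) from below 20% to the middle, and 139 (9.91%) from below 20% straight to 80% or more. Rises made up 3.29% of the tiles with 0 to 9 sites per kb and 2.84% of those with 10 to 19. The share was 2.00% with 20 to 39 sites, 1.62% with 40 to 59, and 0.786% with 60 or more. By chromosome it ran from 1.76% on chromosome 9 to 3.37% on X.

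The levels of the other stages show the course of these tiles. Those stages entered the fit through the spread between their libraries, which favours tiles that are even within a stage, but their levels were not part of the contrast. In 961 risen tiles the mean level was 18.4 to 32.2% in the 6 stages up to Type5a and 31.0% ± 2.07 in Type5b. It was 75.4% ± 1.81 in Type6 and 70.0% ± 0.765 in Type7 (SD, n = 3 each). The Type7 libraries held 69.2 to 70.7%. Of the 1237 risen tiles measured in Type7, 619 (50.0%) were at 80% or more there, against 18.5% of all tested tiles, and 128 (10.3%) were below 20%. The call selects high Type6 levels, with a median of 80.7% in risen tiles against 21.3% in all tested tiles. The 2 shares thus do not compare tiles of a like level in Type6.

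Fallen tiles had another course. In 52 of them the level was 6.30 to 13.4% up to Type5a and 63.9% ± 9.92 in Type5b. Type6 held 24.2% ± 1.26 and Type7 53.3% ± 4.49 (SD, n = 3 each). The Type5b and Type6 levels are those that selected the tiles. In Type7 they were split: of 63 measured there, 22 (34.9%) were below 20% and 26 (41.3%) at 80% or more. Type5b replicate 1 was the highest library in the fallen tiles, with a mean of 75.8% against 58.1 and 59.8% in replicates 2 and 3, and without it 36 tiles fell. Of the 79 fallen tiles 24 were measured in all 6 libraries, and in 12 of these the libraries of the stages did not overlap. Without Type6 replicate 1 the count was 42.

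**Figure D3:**
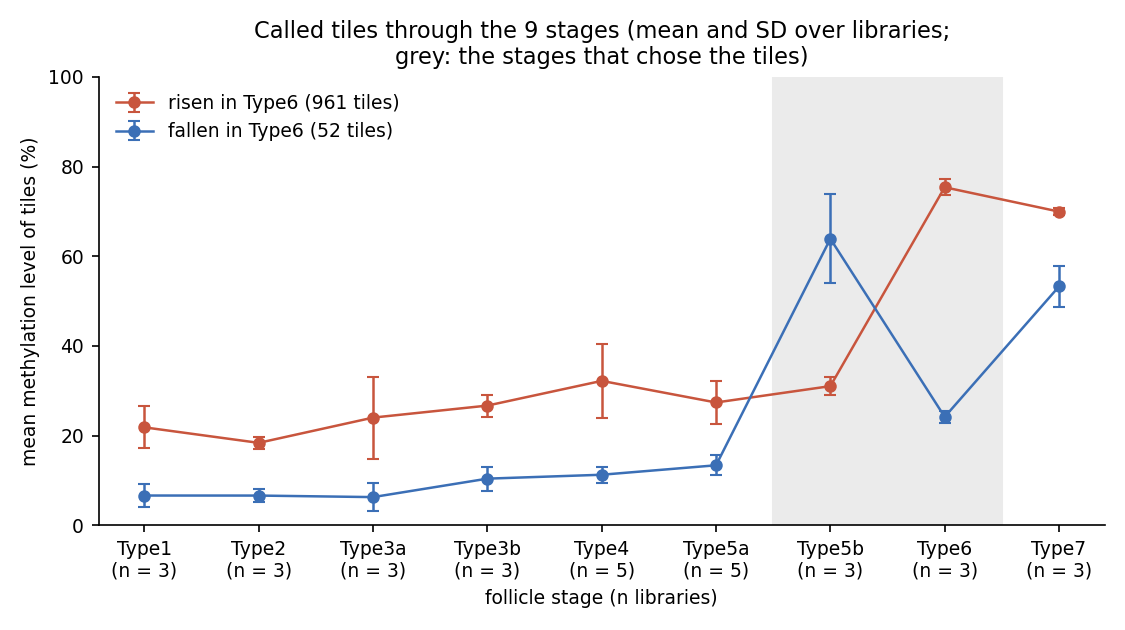
Mean methylation level (%) of the tiles that rose (red, 961 tiles) or fell (blue, 52 tiles) in Type6, across the 9 stages, with the SD over the libraries of a stage; grey marks the stages whose difference chose the tiles. Risen tiles stay between 18.4 and 32.2% up to Type5b and are at 70.0% in Type7; fallen tiles are high in Type5b at 63.9%, low in Type6 and back at 53.3% in Type7.

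Most called tiles stood alone. Joining called tiles with starts at most 1000 bp apart gave 1171 risen regions, 979 of them a single tile, and 74 fallen ones, 69 of them a single tile. In 31 risen regions there were at least 3 called tiles. The region with most called tiles, chr2:130460701-130461900 (6 of 7 tested tiles, touching the promoter window of the predicted gene Gm52563), had 4.05, 7.65 and 7.04% in Type5b and 64.5, 61.0 and 51.2% in Type6. Of its 6 called tiles, Type5b replicate 3 was measured in 2 and Type6 replicate 1 in 5, so the library values average different tiles. The region held 0.387% in Type5a and 81.1% in Type7, so it was low through Type5b. At chr10:80655201-80655600, a stretch dense in listed CpG sites (67 per kb), 4 tiles rose from 0.326, 0 and 1.89% to 55.4, 55.2 and 27.8%, with 64.2% in Type7. At chr8:86566201-86566500 3 tiles rose from 0, 6.48 and 18.9% to 100, 93.7 and 71.9%, with Type5b replicate 1 measured in 2 of them.

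Other regions started from a middle level. At chr10:6724901-6725700 4 of 8 tested tiles rose from 56.9, 48.5 and 58.1% to 92.8, 87.6 and 85.5%. At chrX:164933201-164933800 4 tiles went from 69.9, 41.5 and 80.5% to 98.2, 98.7 and 98.1%, with Type5b replicate 2 measured in 3 of them. The region at chr15:30024301-30025100, with 5 called tiles, went from 54.0, 37.1 and 52.8% to 70.3, 77.5 and 74.1%, and that at chr3:17634001-17634900 from 52.1, 38.97 and 50.9% to 67.3, 79.7 and 74.9%. Neither of these last 2 held a tile called by limma or with at most 40 reads per tile and library. The last named region, chr11:102299901-102300200, was read in 2 Type6 libraries, at 96.4 and 77.6%, against 0.175, 0 and 7.76% in Type5b. With Type6 replicate 3 as the only antral library, 5 of 6 called tiles of the chromosome 2 region were called, 2 of 4 in the dense chromosome 10 region, 1 of 4 in the other and 2 of 3 on chromosome 8. None was called there in the regions on chromosomes 15, 3 and X, and that on chromosome 11 was not read in that library. The X region also had 0 tiles called with at most 40 reads per tile and library.

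Single tiles outside those regions were named by their lowest adjusted p among tiles without overlap. Of the 13 tiles named in this way, edgeR called 0 and the fit on the 2 stages 1. At chr16:30172001-30172100 the level was 7.07, 11.2 and 0% in Type5b and 100% in each Type6 library (adjusted p = 4.03e-06, quasi-binomial; limma 1.11e-05). A tile at chr19:8955001-8955100 had no methylated read in any Type5b library and 83.4, 75.4 and 87.0% in Type6 (adjusted p = 7.10e-07, quasi-binomial). The tile at chr5:140288901-140289000 was likewise at 0% in the 3 Type5b libraries and at 74.8, 84.6 and 70.2% in Type6. The other 2 named risen tiles lay in the promoter windows of Rasl2-9 and Tmem91, described below.

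Among the 3 named tiles of the X chromosome, that at chrX:52064101-52064200 went from 34.6, 21.1 and 40.8% to 94.9, 82.6 and 98.8%. That at chrX:78075601-78075700 went from 16.1, 35.6 and 73.3% to 95.8, 79.5 and 90.3%. The third, chrX:148809801-148809900, had 0, 3.16 and 0% in Type5b and 98.0, 20.8 and 42.7% in Type6, a spread as wide as the rise. At all 3 tiles Type6 replicate 3 too lay above every Type5b library, which their selection without overlap requires. With at most 40 reads per tile and library the first 2 lost the call (adjusted p = 0.0776 and 0.0937, quasi-binomial) and the third kept it (0.0162).

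The named falls were smaller or less even. At chr13:55932301-55932400 the level was 92.6, 100 and 100% in Type5b and 75.0, 60.4 and 73.3% in Type6 (adjusted p = 0.000561, quasi-binomial), and 100% in Type7. At chr2:105520501-105520600 it was 67.7, 32.1 and 34.8% against 12.3, 0.394 and 0%, with 6.68% in Type7, and at chr15:101761101-101761200 10.6, 62.0 and 60.4% against 5.39, 1.05 and 7.28%, with 3.50% in Type7. In these latter 2 tiles Type5b was the one stage that stood out, since Type5a held 5.74 and 2.48%. The tile at chr1:174136801-174136900 had 98.4, 84.7 and 100% in Type5b, 50.0, 70.6 and 74.4% in Type6 and 100% in Type7. At chr13:90803601-90803700 it was 90.1, 70.7 and 69.3% against 39.7, 34.1 and 51.6%, and limma did not call it (adjusted p = 0.327). This tile and that on chromosome 1 lost the call with Type6 replicate 3 as the only antral library (adjusted p = 0.708 and 0.119, quasi-binomial).

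The named fallen regions were 4 pairs of tiles, and each lacked at least 1 library. At chr10:6079801-6080000 the level was 100, 94.8 and 6.25% in Type5b and 0% in the 2 Type6 libraries that were read, with 98.9% in Type7. At chr3:96290601-96290800 it was 98.8, 66.4 and 12.9% against 3.51 and 8.80%. At chr16:26954501-26954700 Type5b replicates 1 and 2 lay at opposite ends, with 98.8 and 0%, against 1.44 and 1.03% in Type6. The pair at chr9:121186801-121187000 lies in the Gm34655 promoter window. With Type6 replicate 3 as the only antral library the pair on chromosome 16 was called and the tiles of the other 3 were not.

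Promoter windows that could be tested stayed mostly unmethylated. Placing a window needed at least 6 matched CpG sites, so CpG-poor promoters were left out. Of 6791 promoter windows of 300 bp that could be placed on the files, 3394 (3159 genes) were tested; 28 rose (0.825%) and 4 fell (0.118%), by the same quasi-binomial test and thresholds. In 92.1% of the windows both stages were below 10%. Over the 1910 windows measured in all 6 libraries the mean level was 3.05, 2.14 and 2.01% in Type5b and 3.89, 3.66 and 3.98% in Type6. Windows at 80% or more numbered 18 in Type5b and 40 in Type6. limma also called 21 of the 28 rises and 2 of the 4 falls, and with Type6 replicate 3 alone 17 and 3 were called. The fit on the 2 stages and edgeR each called 0 windows in either direction. The count of falls moved with single libraries: it was 8 without Type5b replicate 2, 7 without Type5b replicate 3, 1 without Type6 replicate 2 and 7 without Type6 replicate 3. Windows that rose held a median of 17.5 CpG, against 27 in all windows tested. Windows placed this way were chosen after the files were read, and genes without a placed window were not analysed.

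**Figure D4:**
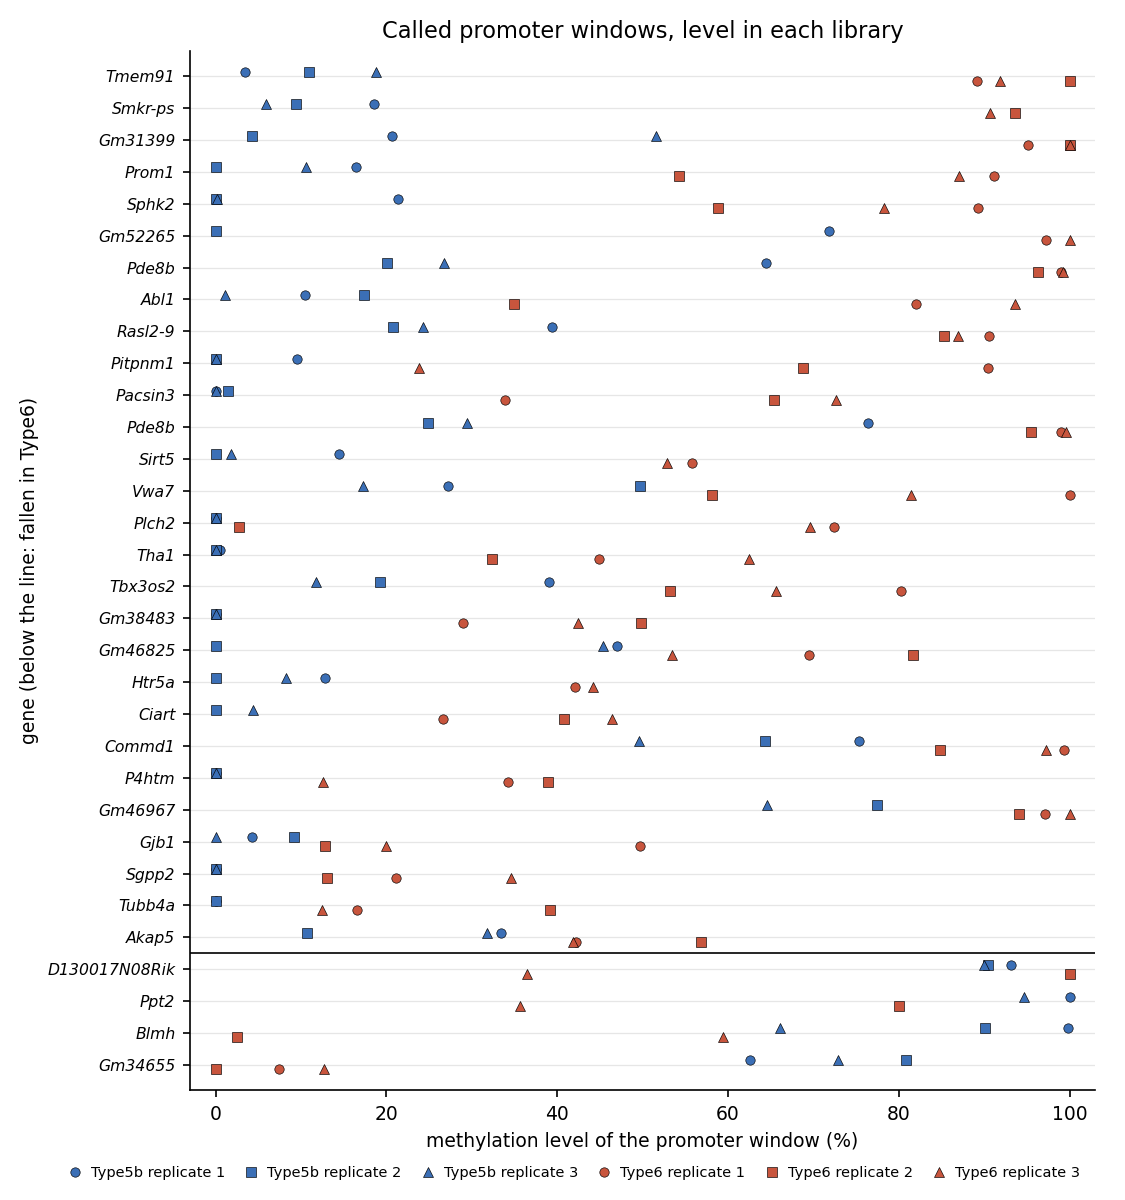
Methylation level (%) of each called promoter window in each library (Type5b blue, Type6 red; a missing point is a library without enough reads), with rises above the line and falls below. In the 28 risen windows every measured Type6 library lies above every Type5b library, which the call favours; among the 4 fallen windows D130017N08Rik overlaps.

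The Tmem91 window, whose sequence has 11 CpG, had the largest difference: 3.40, 10.9 and 18.8% in Type5b and 89.2, 100 and 91.8% in Type6 (adjusted p = 1.97e-09, quasi-binomial). It held at most 0.656% in the stages up to Type5a, and was at 100% in Type7. The 9 sites read, from 49 bases before to 41 after the start, moved together: site levels ran from 0 to 23.1% in the Type5b libraries and had a median of 100% in each Type6 library.

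In the Rasl2-9 window the level was 39.4, 20.7 and 24.3% in Type5b and 90.5, 85.4 and 87.0% in Type6 (adjusted p = 3.63e-08, quasi-binomial), with 9.70% in Type5a and 94.5% in Type7. Its Type5b libraries were uneven along the sequence: in replicate 2 the 10 sites had a median of 0% and a highest of 52.1%, while in replicate 1 the median was 62.4%. In Type6 the site medians were 94.8, 94.9 and 99.4%.

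Pacsin3 and Tha1 went from unmethylated to partly methylated. The Pacsin3 window, with 24 CpG, had 0, 1.40 and 0% in Type5b and 33.9, 65.4 and 72.7% in Type6, with 62.8% in Type7; by quasi-binomial fit its adjusted p was 0.00654, and by limma 1.12e-06. In Type6 replicate 1, 9 of the 11 sites lay between 32.9 and 38.2%. At Tha1 the window was at 0.460, 0 and 0% in Type5b and 44.9, 32.4 and 62.4% in Type6 (adjusted p = 0.000220, quasi-binomial), with 75.6% in Type7. Its sites split in Type6 replicate 2, from 0 to 100%. Neighbouring sites of a fragment share reads, and PCR copies count as reads, so a single-site level is not an independent value.

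The Gm34655 window fell from 62.6, 80.9 and 72.9% to 7.41, 0 and 12.7% (adjusted p = 0.00167, quasi-binomial), with 63.7% in Type7 and at most 1.37% up to Type5a. Most sites after the first 4 were at 60 to 100% in Type5b and at 0 to 13.8% in Type6 replicates 1 and 3. The 4 sites farthest from the start did not follow this pattern: Type6 replicate 1 had 50 to 55.9% there and Type5b replicate 3 had 0%. Type6 replicate 2 was read at those 4 sites alone. The falling sites had 5 to 12 reads each in the Type5b libraries that read them, and with Type6 replicate 3 as the only antral library the window was not called (adjusted p = 0.0609, quasi-binomial).

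**Figure D5:**
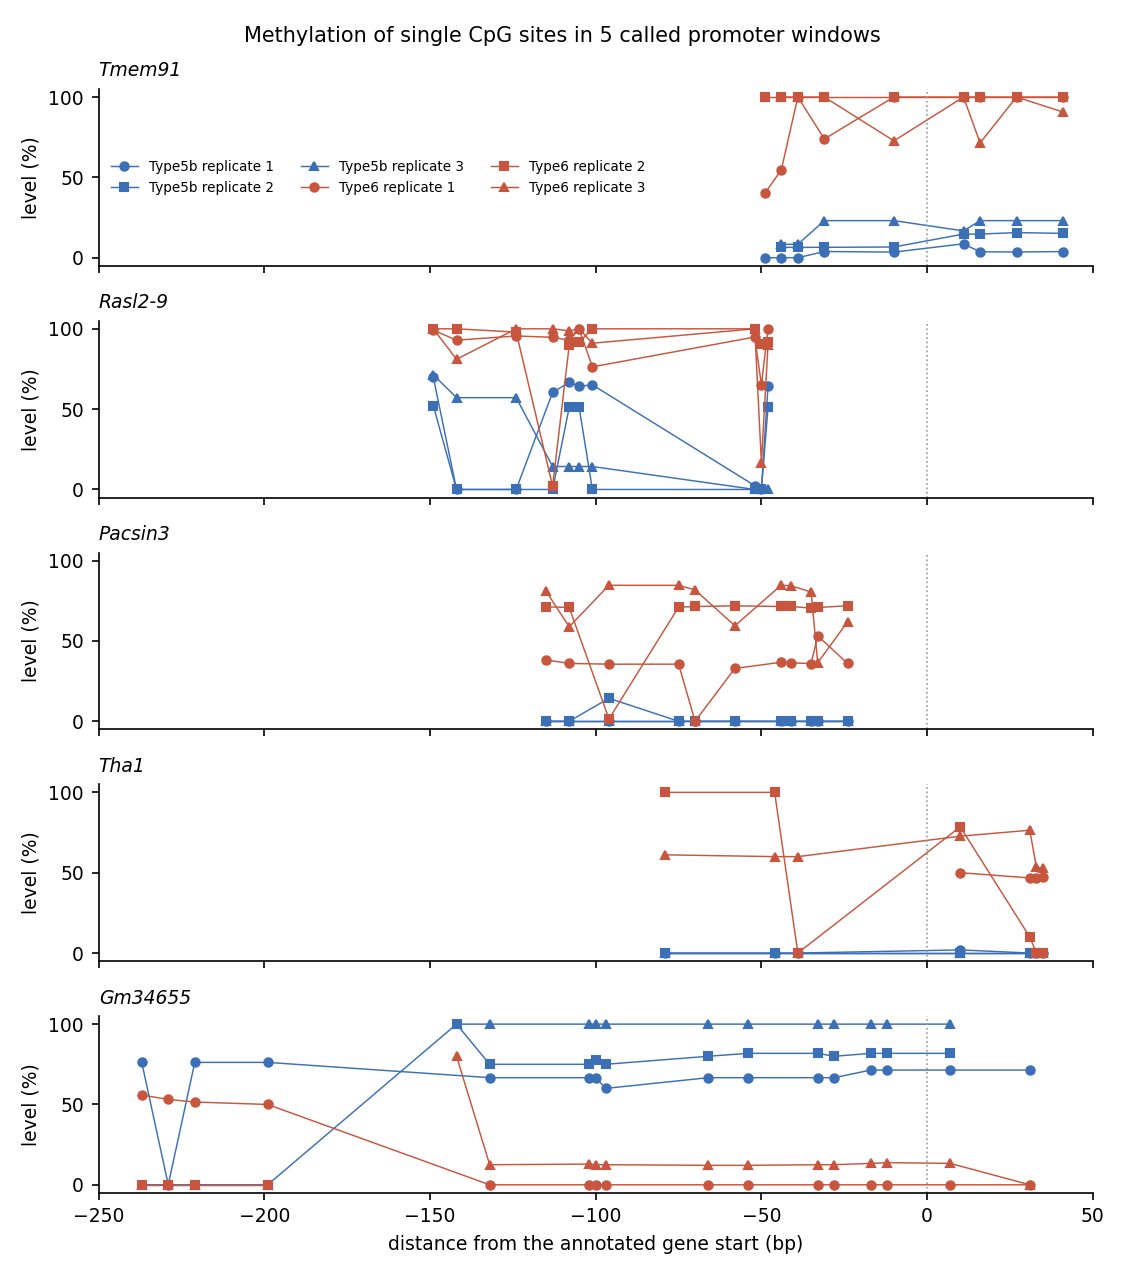
Methylation level (%) of single CpG sites against the distance from the annotated gene start (bp, dotted line at 0) in 5 called promoter windows, 1 line per library (Type5b blue, Type6 red; sites with at least 5 reads). At Tmem91, Pacsin3 and Rasl2-9 most sites of a window shift up together in Type6; at Gm34655 the sites from 132 bases before the start onward are lower in Type6.

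Other promoters that rose belong to genes of varied roles, and the share of windows called is too small for the list to be more than a set of examples. Among them were Sphk2, a sphingosine kinase (21.4, 0 and 0.217% in Type5b; 89.2, 58.9 and 78.2% in Type6), Sgpp2, a sphingosine-1-phosphate phosphatase (0% in all 3; 21.2, 13 and 34.6%), Pitpnm1, a phosphatidylinositol transfer protein (9.52, 0 and 0%; 90.5, 68.8 and 23.8%), and Plch2, a phospholipase C (0% in all 3; 72.4, 2.70 and 69.6%). The Plch2 value rests on Type6 replicates 1 and 3. Others were Pde8b, a phosphodiesterase (64.4, 20.1 and 26.8%; 99.03, 96.3 and 99.3% in the first of 2 overlapping windows), and Akap5, an anchoring protein of protein kinase A (33.4, 10.7 and 31.8%; 42.2, 56.8 and 41.8%). Abl1, a tyrosine kinase, went from 10.5, 17.3 and 1.08% to 82.0, 35.0 and 93.7%, and Prom1, the membrane protein prominin, from 16.4, 0 and 10.5% to 91.2, 54.3 and 87.1%. Sirt5, a mitochondrial deacylase, was read in 2 Type6 libraries, at 55.8 and 52.9%, against 14.5, 0 and 1.86% in Type5b. By limma Sirt5 and Akap5 were not called (adjusted p = 0.0548 and 0.0516). Pitpnm1, Pde8b and Akap5 lost the call with Type6 replicate 3 as the only antral library (adjusted p = 0.0525, 0.144 and 0.160, quasi-binomial).

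The circadian repressor gene Ciart had 0 and 4.35% in the 2 Type5b libraries read and 26.6, 40.8 and 46.4% in Type6. P4htm, a membrane-bound prolyl hydroxylase, was at 0% in all 3 Type5b libraries and at 34.3, 38.95 and 12.6% in Type6, where replicate 3 alone stayed under the 20 points of the call. Gjb1, which encodes connexin 32 and was the one called gene on X, had 4.27, 9.21 and 0% against 49.7, 12.8 and 20%; it was not called by limma (adjusted p = 0.434) or with Type6 replicate 3 as the only antral library (adjusted p = 0.403, quasi-binomial). Falls other than Gm34655 were each read in 2 Type6 libraries. Blmh, bleomycin hydrolase, had 99.9, 90.1 and 66.2% in Type5b and 2.46 and 59.4% in Type6, with 98.6% in Type7. Ppt2, a palmitoyl-protein thioesterase, had 100 and 94.6% against 80 and 35.6%, and D130017N08Rik had 93.1, 90.5 and 90.04% against 100 and 36.5%. By limma neither of these last 2 was called (adjusted p = 0.155 and 0.803).

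Of 19 maternally methylated imprint genes, whose control regions gain methylation in the growing oocyte, 4 had a tested promoter window and none was called (background 0.825%). Mcts2, an imprinted retrogene, was high in both stages, with 80.9, 83.8 and 97.0% in Type5b and 99.5, 100 and 81.5% in Type6, after 40.7% in Type5a. Zrsr1, an imprinted splicing-factor gene, had 60.9 and 99.1% in the 2 Type5b libraries read and 96.3, 100 and 99.7% in Type6. Zrsr1 lies inside the gene Commd1, and a Commd1 window beside it (chr11:22872817-22873116) did rise, from 75.3, 64.3 and 49.6% to 99.3, 84.8 and 97.3% (adjusted p = 0.0222, quasi-binomial; limma 0.339). It was not called with Type6 replicate 3 as the only antral library (adjusted p = 0.159, quasi-binomial). Windows of Grb10 and Zdbf2 stayed low, at no more than 10.3% in any library of the 2 stages, and were at 0.0741 and 0.939% in Type7. A window at an annotated start need not be the control region. Control regions were not placed, so these values do not tell whether an imprint was set. Of the paternally methylated genes Meg3 alone was tested, and it had 7.41 and 0% in Type5b against 0, 8.33 and 14.2% in Type6.

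Of 14 genes for the methylation machinery 3 were tested and none was called. Uhrf1, which guides maintenance methylation, was at 0% in all 6 libraries (280 to 2000 reads each). Dnmt1, the maintenance methyltransferase, had 2.34 and 73.6% in the 2 Type5b libraries read, 18.6, 50.4 and 58.7% in Type6 and 99.8% in Type7. Tet2, an enzyme that oxidises methylcytosine, had 0 and 0% in Type5b and 46.9, 0 and 7.87% in Type6. Nlrp5, the oocyte gene also called Mater, was the one tested of 14 oocyte genes and was not called, with 6.25, 0 and 19.7% in Type5b and 0, 10.2 and 17.6% in Type6.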

How the data were processed

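Reduced representation bisulfite sequencing of mouse oocytes was compared between 3 Type6 and 3 Type5b libraries; all 31 libraries entered the fit to estimate the spread. DNA was cut with MspI, ligated, bisulfite treated and amplified, and fragments of 200 to 700 bp were kept, per the labels' protocols. The submitters' processing notes name BSMAP 2.89 and build mm9; which caller made the files is not given in the sources used here, and neither is trimming. The deposited files give counts of total and methylated reads per site, from which levels were computed, and the authors' methylated fraction, which was not used further. The lowest total of any listed site was 3 reads. No molecular identifiers exist, so PCR copies count as reads.

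Sites with at least 5 reads were summed in 100-bp tiles with at least 3 sites. Methylated against total reads were modelled as quasi-binomial (stage as factor, dispersion moderated with limma's squeezeVar and floored at 1, F test by the score statistic, Benjamini-Hochberg) in tiles measured in at least 2 libraries of each stage; tested on simulated data, this fit called more unchanged tiles than limma or the fit with at most 40 reads per tile and library did, and too many unchanged tiles had a low unadjusted p, so its adjusted p-values are too small. Measures of whole libraries were set against each other by exact permutation, two-sided. Replicate numbers were not used as pairs in the main tests. Deviations of same-numbered libraries correlated at 0.0102, 0.0170 and -0.00472 over 33136 tiles, and those of differently numbered ones at -0.0195 to 0.0106. Such values cannot exclude a pairing that leaves tile levels uncorrelated.

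RefSeq promoter windows (GRCm38.p6; 250 bases before to 50 after the start) were placed on mm9 by matching the spacing of at least 6 CpG and their deposited 5-base context, with no conversion of coordinates. Of 32851 windows 6806 were placed, 6791 of them distinct; none of 3681 searched on a wrong chromosome was found there. Without an annotation of mm9, gene bodies were not analysed, and tiles are named by position; chromosome 18 was left out of naming.

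Named are the 8 risen and 4 fallen regions with most called tiles, then, among called tiles read in all 6 libraries without overlap, the 5 per direction and 3 on X with the lowest adjusted p; promoters described were picked among the called windows after their values were seen, besides the fixed lists, and the plot shows all called windows. The members and lists were chosen with earlier results of these data known. Alternatives were other read, site and tile sizes, read caps, autosomes alone, libraries left out, limma, edgeR, a fit on the 2 stages, a replicate block and other difference thresholds. The software was R 4.3.3 (edgeR 4.0.16, limma 3.58.1) and Python 3.11.15 (pandas 2.3.3, scipy 1.17.1, numpy 2.4.6).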

Additional observations from a re-analysis of the deposited data

Results flagged for a closer look

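Reads on mitochondrial sites, which no comparison of the report uses, averaged 44.5 RPM of all reads over sites in Type5b (SD 7.68, n = 3) and 93.5 RPM in Type6 (SD 41.0, n = 3). They stand out because they are a signal outside the nuclear genome, and 2 of the 3 Type6 libraries, replicates 1 and 2, hold most of the difference.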

How the results depend on the processing

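The 11 library-level differences kept their direction in all 142 recomputations under other settings, but their exact p cannot go below 0.1. The mean tile level differed by 6.44 points with at least 5 sites per tile and by 9.37 points in 300-bp tiles.

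The counts of calls moved with the settings. From 1403 risen and 79 fallen tiles, at least 5 sites per tile gave 580 and 36, at most 10 reads per site 380 and 15, limma 683 and 24, and at most 40 reads per tile and library 372 and 16. Risen tiles numbered 877 without Type6 replicates 1 and 2, and fallen tiles 41 with at least 10 reads per site. A difference of at least 40 points left 822 and 37, and one of at least 10 points 153 fallen. Leaving out 1 library gave 758 to 1200 risen and 36 to 76 fallen tiles. The fit on the 2 stages alone called 1 tile risen and 0 fallen (10577 at an unadjusted p under 0.05), and edgeR 0 and 0 (4435 at an unadjusted p under 0.05); both estimate the spread from 6 libraries. Of the 13 named tiles limma called 12, the cap of 40 reads 10, the fit on the 2 stages 1 and edgeR 0.

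For promoter windows, 28 risen and 4 fallen became 0 and 0 with the fit on the 2 stages (393 at an unadjusted p under 0.05) and with edgeR (73). A difference of at least 40 points left 18 and 2, and one of at least 10 points 10 fallen. At most 10 reads per site left 1 fallen window and the cap of 40 reads 2; leaving out 1 library gave 24 to 35 risen and 1 to 8 fallen.

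The replicate block gave 1610 risen and 116 fallen tiles and 48 risen and 3 fallen windows; library-level differences were 8.66 points for the mean tile level, with p = 0.25 from an exact sign-flip test, the smallest 3 pairs can give. The cause of these shifts was not tested, other than that some settings test fewer tiles or libraries. Type5b replicates 2 and 3 had the fewest reads; whether depth limits calls there was not tested.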
